A study of Mus musculus with 30 samples.

Results

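Hearts of old female mice that drank water with nicotinamide riboside (NR) were compared with hearts of young female mice that drank plain water, all collected at Zeitgeber time 22 (ZT22), late in the dark phase. The members were chosen by their sample labels alone: 3 old NR hearts and 3 young hearts. Each came from its own mouse and was sequenced as its own library, and they are 6 of 18 hearts and 6 of the 30 samples of the series. The old mice were 12 months old and had received NR at 3 g/l for 10 months, starting at the age of 2 months, and the young mice were 2 months old without NR. All were C57BL6 (a mixed J and N background according to the study's methods), were kept in groups under a light/dark cycle on standard chow with free access to the water, and at ZT22 their hearts were collected with the lights off under red headlamps. Hearts of 12-month-old mice on plain water (old H2O, 3 hearts) and the same groups at ZT10, in the light phase, were used for values set beside the comparison and for 1 test of how it differed between the time points. Since the old NR and the young hearts differed in both age and NR, the contributions of age and of NR to a difference between them cannot be told apart by this contrast.

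NR is a vitamin B3 form that cells phosphorylate and turn into NAD+, the cofactor of redox enzymes and the substrate of sirtuins, PARPs and CD38. The cardiac clock runs on a feedback loop in which CLOCK or NPAS2 with BMAL1 (Arntl) drive the Per and Cry repressors, and in which the nuclear receptors REV-ERB (Nr1d1, Nr1d2) and ROR act on Arntl. Heart muscle also relies on chaperones of the endoplasmic reticulum (ER) and of the cytosol, and on a collagen and elastin matrix that fibroblasts and vascular cells secrete.

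Of 15443 genes tested, 2189 (14.2%) differed between old NR and young hearts at ZT22 (edgeR quasi-likelihood F-test, Benjamini-Hochberg adjusted p under 0.05), with 1173 higher (7.6%) and 1016 lower (6.58%) in old NR hearts. Most differences were modest: the median size among called genes was 0.44 on the log2 scale, and 251 of the higher and 104 of the lower genes passed 1 on that scale. At an unadjusted p under 0.05 the count was 4188, and the median log2 fold change over all tested genes was 0.0055. The 3 values of the groups did not overlap for 2000 of the called genes (91.4%) and for 27.5% of all genes tested. Over 11075 genes, the root mean square difference between an old NR and a young heart (0.308 to 0.365, log2) lay above that between hearts of the same group (0.169 to 0.266). Library totals ran from 4364594 to 7321880 counts in old NR and from 4538090 to 6068397 in young hearts, and the median coefficient of variation within a group was 9.41% and 9.42%. Young replicate 2 was high for stress-inducible genes, as described with them, and leaving it out gave 1466 called genes. On leaving out old NR replicate 2 the count was 1301. With only the 6 compared hearts in the fit it was 1214 in edgeR and 792 in DESeq2.

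**Figure D1:**
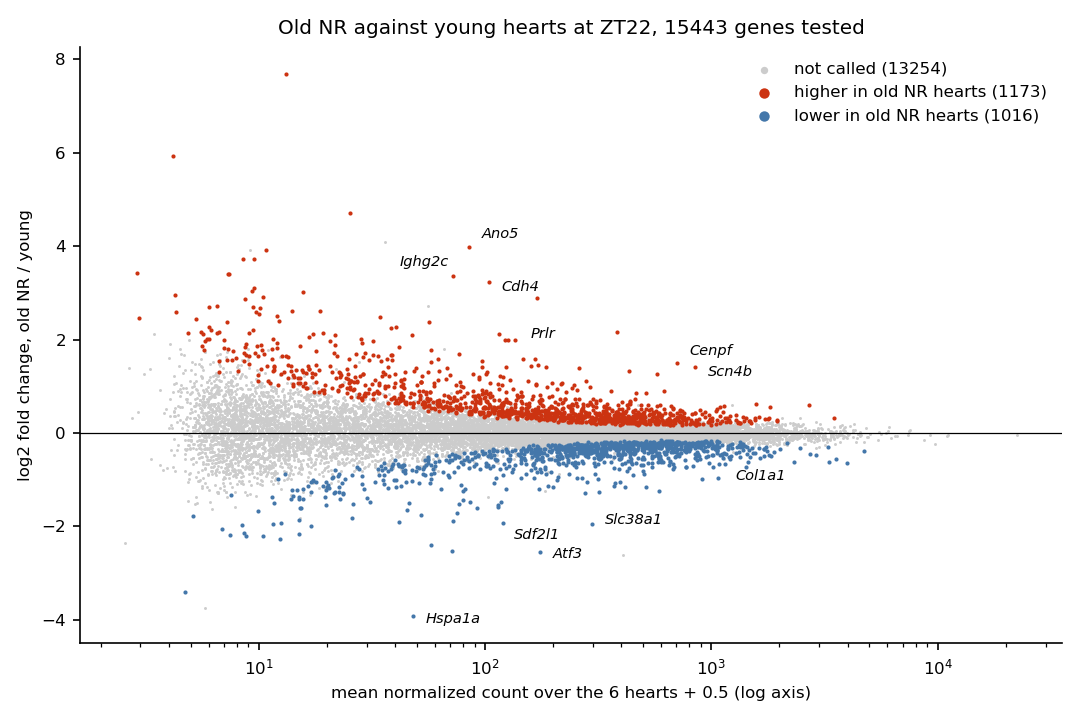
Log2 fold change of old NR over young hearts at ZT22 (vertical axis) against the mean normalized count of the 6 hearts plus 0.5 (horizontal log axis), with each point a gene and called genes in colour. The 1173 higher and 1016 lower genes lie on both sides of 0 over most of the range of levels, and most lie within 1 log2 unit of 0.

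Normalized counts given below are counts scaled to a common library size, fold changes are old NR over young on the log2 scale with their standard error (SE), and coordinates are those of mm10. Beside the 2189 genes between old NR and young hearts, 54 (0.35%) were called when old NR was set against old H2O hearts at that time and 2183 (14.1%) between old H2O and young hearts, and the latter comparison shares the young hearts with the one described here.

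The genes with the largest called differences were of mixed function. Ano5, an anoctamin of muscle membranes (chromosome 7, 51511029 to 51598709), had normalized counts of 132, 219 and 125 in old NR and 19.01, 9.38 and 3.13 in young hearts (log2 fold change 3.99 ± 0.42, edgeR adjusted p = 1.9e-06). Cdh4, which encodes R-cadherin, stood at 242, 145 and 178 against 17.7, 22.5 and 17.8 (log2 fold change 3.22 ± 0.24, edgeR adjusted p = 2.0e-08). Cdh22, a further cadherin, was at 200.1, 191 and 172 against 12.7, 50.6 and 60.6 (log2 fold change 2.12 ± 0.24, edgeR adjusted p = 4.2e-06). Among enzymes of lipid handling, Acsm5, a mitochondrial medium-chain acyl-CoA synthetase, had 185, 216 and 206 and 40.6, 63.8 and 45.98 normalized counts (log2 fold change 2.00 ± 0.19, edgeR adjusted p = 6.9e-07). These genes were low in young hearts and at least moderately expressed in all 3 old NR hearts. At ZT22 the log2 fold change of old H2O over young hearts was 3.81 for Ano5, 3.54 for Cdh4, 2.06 for Cdh22 and 1.76 for Acsm5. None of them was called between old NR and old H2O hearts (edgeR adjusted p from 0.47 to 0.98), where 0.35% of all genes were called. Cds1, which makes CDP-diacylglycerol, was at 205, 207 and 172 and 44.4, 39.4 and 62.7 (log2 fold change 1.99 ± 0.14, edgeR adjusted p = 6.4e-09). Prkcq, protein kinase C theta, was at 191, 254 and 202 and 67.2, 57.2 and 41.8 (log2 fold change 1.99 ± 0.15, edgeR adjusted p = 2.6e-08). Prlr, the prolactin receptor, had 207, 279 and 258 and 65.9, 76.9 and 104 (log2 fold change 1.60 ± 0.13, edgeR adjusted p = 4.9e-08). Abat, the GABA transaminase, had 561, 597 and 694 and 196, 293 and 241 (log2 fold change 1.33 ± 0.12, edgeR adjusted p = 4.0e-07). Cpxm2 (2.17 ± 0.23), Hs3st5 (1.78 ± 0.23), Inmt (1.70 ± 0.24) and Rgs7bp (1.42 ± 0.12) rose as well. Groups that do not overlap were a condition for naming these genes, so that trait is not a separate result. Amy1, an amylase, rose by 1.40 ± 0.12, but reads that fit several amylase genes were removed by the authors, so its level is uncertain. The highest fitted fold change belonged to Pak7, a p21-activated kinase, with normalized counts of 24.2, 29.9 and 22.2 in old NR hearts and 0 in each young heart. Its level in young hearts is too low for a size to be given.

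Old NR hearts also carried more RNA of Ighg2c, the constant region of an immunoglobulin heavy chain made by plasma cells (157, 127 and 111 against 10.1, 9.38 and 17.8, log2 fold change 3.36 ± 0.22, edgeR adjusted p = 4.8e-09). In bulk heart RNA, here and below, more or fewer cells of a type and more or less RNA per cell cannot be told apart. Closely related immunoglobulin genes share reads, so the exact gene is uncertain. The summed level of the listed B and plasma cell markers was 361 to 557 in old NR and 276 to 309 in young hearts. Ighg2c was the one called among 10 tested (10%, against 14.2% of all genes).

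In the other direction, Slc38a1, a sodium-coupled glutamine transporter (chromosome 15, 96571418 to 96642913), had 63.1, 165 and 124 normalized counts in old NR and 406, 549.6 and 473 in young hearts (log2 fold change -1.95 ± 0.18, edgeR adjusted p = 4.0e-07). It was also lower at ZT10 (-1.84, edgeR adjusted p = 3.7e-06). Adamtsl2, a secreted protein that binds microfibrils, was at 114, 178 and 186 and 329.5, 407 and 449 (log2 fold change -1.28 ± 0.17, edgeR adjusted p = 3.3e-05). Inka2, an inhibitor of a p21-activated kinase, was at 324, 295 and 337 against 691, 738 and 694 (log2 fold change -1.16 ± 0.11, edgeR adjusted p = 4.0e-07), while at ZT10 it was at 798, 754 and 784 and 836, 594 and 683. Rtn4r (-1.60 ± 0.24), Spon2 (-1.58 ± 0.25), Spsb4 (-1.49 ± 0.23) and Gt(ROSA)26Sor (-1.47 ± 0.28) fell too. For 2 others a single heart mattered. Rfx2 had 37.6, 40.4 and 42.9 in old NR and 59.6, 224 and 53.3 in young hearts (log2 fold change -1.51 ± 0.39, edgeR adjusted p = 0.013). Its log2 fold change was -0.47 without young replicate 2, and its call was lost on leaving out, in turn, old NR replicate 2 and young replicate 2 (edgeR adjusted p between 0.0502 and 0.324). Dct had 44.3, 50.9 and 34.9 against 78.6, 163 and 103 (log2 fold change -1.43 ± 0.33, edgeR adjusted p = 0.0055), and was not called on leaving out young replicate 2 (edgeR adjusted p = 0.059).

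**Figure D2:**
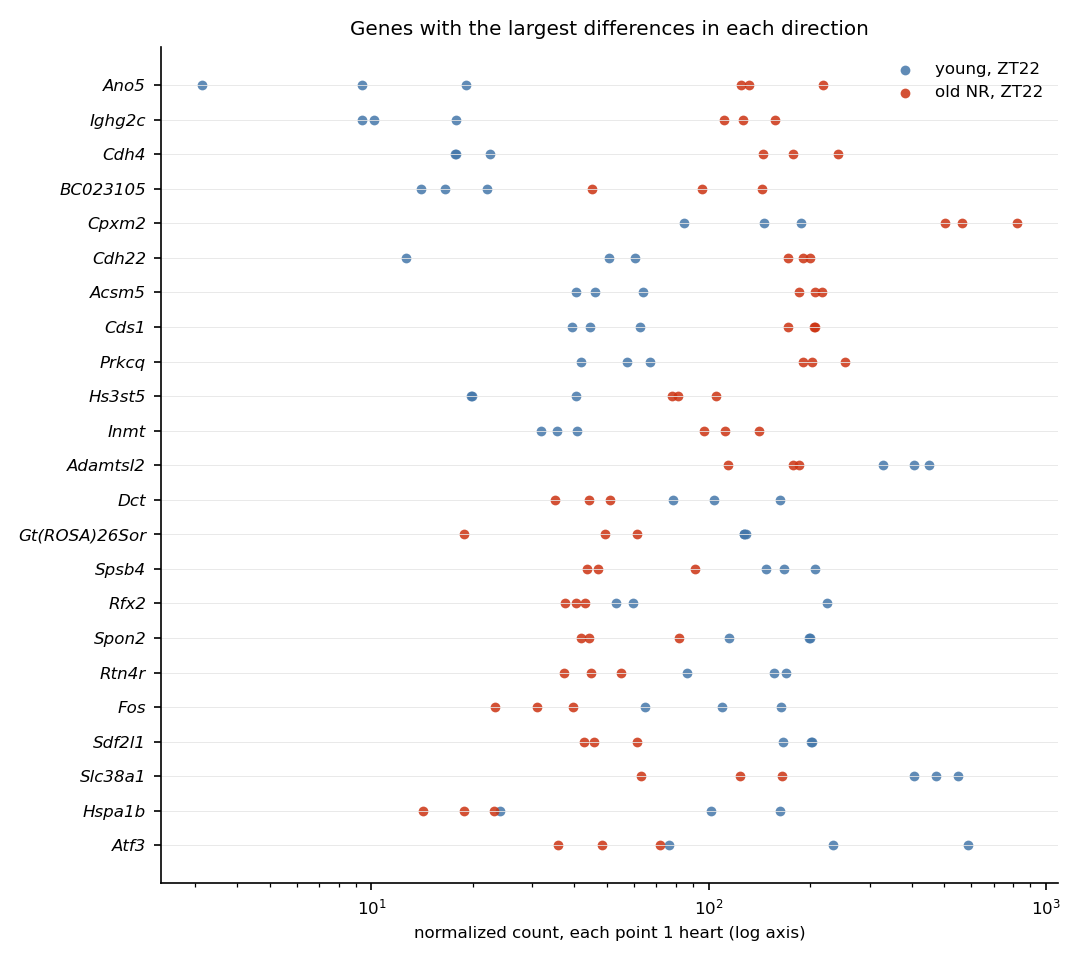
Normalized counts (log axis, each point 1 heart) at ZT22 of 11 of the 12 genes with the largest higher and the 12 with the largest lower log2 fold change among called genes with a mean of at least 50 and groups that do not overlap. The groups stand well apart for Ano5, Ighg2c and Cdh4 (higher) and for Slc38a1 and Sdf2l1 (lower), while for Atf3 and Hspa1b the lowest young heart lies next to the highest old NR heart. Young replicate 2 lies far above the other hearts for Atf3 and Rfx2.

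Genes of the unfolded protein response (UPR), which refills the ER with chaperones when secretory proteins misfold, were lower in old NR hearts. Of 17 tested, 13 fell and 0 rose (76.5% called, against 14.2% of all genes), with a median log2 fold change of -0.486. The number that fell was 12 to 15 under the alternatives tried. Sdf2l1, a partner of the ER chaperone BiP (chromosome 16, 17130138 to 17132383), had 45.7, 42.7 and 61.1 normalized counts in old NR and 203, 201 and 166 in young hearts (log2 fold change -1.92 ± 0.17, edgeR adjusted p = 1.5e-07). Manf, a secreted ER stress factor (chromosome 9, 106838312 to 106891979), had 209, 248 and 233 and 556, 521 and 457 (log2 fold change -1.14 ± 0.09, edgeR adjusted p = 4.9e-08). Hyou1, a large ER chaperone (chromosome 9, 44379490 to 44392369), stood at 642, 582 and 619 and 1256, 1260.5 and 1099 (log2 fold change -0.98 ± 0.07, edgeR adjusted p = 2.0e-08). In all 3 the highest old NR heart was well below the lowest young heart.

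Creld2, an ER disulfide isomerase, had 136, 131 and 161 against 295, 281 and 255 (log2 fold change -0.95 ± 0.10, edgeR adjusted p = 3.9e-06). Pdia4, an isomerase of the same class, had 359, 339 and 391 against 657, 652 and 595 (log2 fold change -0.80 ± 0.07, edgeR adjusted p = 2.2e-07). Xbp1, whose spliced product is a transcription factor of the UPR, was at 508, 476 and 510.4 and 840.3, 898 and 821 (log2 fold change -0.78 ± 0.08, edgeR adjusted p = 6.5e-07). Syvn1, the ubiquitin ligase that marks misfolded ER proteins for destruction and not itself a member of the list, was at 329, 305 and 342 and 534, 586 and 505 (log2 fold change -0.74 ± 0.07, edgeR adjusted p = 4.0e-07). The abundant chaperones changed by less. Hsp90b1 (GRP94) had 1732, 1398 and 1459 against 2293, 2143 and 1992 (log2 fold change -0.49 ± 0.11, edgeR adjusted p = 0.0033). Hspa5 (BiP) had 2691, 2068 and 2154 against 3504, 2981 and 2984 (log2 fold change -0.46 ± 0.13, edgeR adjusted p = 0.018), a call that was lost on leaving out, in turn, old NR replicates 2 and 3 and young replicate 1 (edgeR adjusted p between 0.077 and 0.095). Pdia3 (-0.50 ± 0.09), Pdia6 (-0.49 ± 0.08), Dnajb9 (-0.36 ± 0.07), Dnajb11 (-0.40 ± 0.07) and Dnajc3 (-0.46 ± 0.08), co-chaperones and isomerases, fell with no overlap of the groups. Of the 4 that did not pass, the lectin chaperone Calr had -0.31 ± 0.12 (edgeR adjusted p = 0.096), Canx -0.09 ± 0.12 (0.667), Herpud1 -0.21 ± 0.09 (0.14) and Ddit3, which encodes CHOP, -0.32 ± 0.12 (0.075).

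The difference in ER chaperones was not the same at ZT10. The change of the old NR to young difference between ZT22 and ZT10 passed the test for 14 of the 17 members, against 5.98% of all genes tested (924, edgeR interaction contrast). At ZT10 the members' median log2 fold change was 0.121, with 4 higher and 0 lower in old NR hearts, where 4.27% of all genes were called. Sdf2l1 was at 76.7, 92.2 and 81.2 in old NR and 54.5, 39.4 and 35.2 in young hearts at ZT10 (log2 fold change 0.95, edgeR adjusted p = 0.0054), and the change between time points was -2.87 ± 0.25, edgeR adjusted p = 6.1e-07. Manf (ZT10 log2 fold change 0.48, change -1.62 ± 0.13, edgeR adjusted p = 2.3e-07), Hyou1 (0.42, change -1.39 ± 0.10, edgeR adjusted p = 9.6e-08) and Creld2 (0.45, change -1.41 ± 0.15, edgeR adjusted p = 1.5e-05) likewise were higher at ZT10 and lower at ZT22 in old NR than in young hearts. In young hearts these genes stood higher at ZT22 than at ZT10, as the values for Sdf2l1 show. Old H2O hearts at ZT22 held 70.7, 82.8 and 62.1 for Sdf2l1 and 724, 751 and 675 for Hyou1. Neither differed between old NR and old H2O hearts by the test (edgeR adjusted p = 0.275 and 0.214). Against young hearts at ZT22, old H2O hearts had 0 higher and 14 lower members (median log2 fold change -0.385), where 14.1% of all genes were called. Between old NR and old H2O hearts 0 of the 17 members differed in edgeR (3 at an unadjusted p under 0.05), where 0.35% of all genes were called.

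Promoter sequence was read for these genes because several of the members fell together. Of the 17 members, 15 had a promoter in the RefSeq table used (GRCm38.p6, 250 bases before to 50 after the start). The ER stress element, CCAAT and CCACG with 9 free bases between, searched on both strands, was found in 7 of the 15 (46.7%) and in 5 of the 11 lower members with a promoter (45.5%), and in 37 of 27025 genes (0.137%). Below are the stretches around it in 5 members that fell, 5′ to 3′ on the gene's strand, with the element in capitals. Canx and Calr, which did not pass the test, hold it too, so it does not separate the members that fell.
Hspa5: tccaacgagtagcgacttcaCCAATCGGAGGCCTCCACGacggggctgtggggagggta
Hsp90b1: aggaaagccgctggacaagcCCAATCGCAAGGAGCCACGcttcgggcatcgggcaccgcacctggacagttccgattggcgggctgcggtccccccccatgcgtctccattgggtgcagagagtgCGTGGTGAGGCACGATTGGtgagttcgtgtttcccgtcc
Pdia6: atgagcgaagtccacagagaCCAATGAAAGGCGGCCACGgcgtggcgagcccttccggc
Creld2: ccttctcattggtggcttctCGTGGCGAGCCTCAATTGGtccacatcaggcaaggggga
Dnajc3: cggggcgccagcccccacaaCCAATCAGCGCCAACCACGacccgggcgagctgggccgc
These lie at chr2:34772005-34772063 (plus strand), chr10:86705513-86705676 (minus), chr12:17266471-17266529 (plus), chr15:88819500-88819558 (plus) and chr14:118937807-118937865 (plus). Hsp90b1 carries the element in both orientations, at positions -212 and -107 from the start, and the Creld2 element at -126 is on the opposite strand. A match of letters describes the window and does not show that a factor was bound there.

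Cytosolic heat shock genes were lower too. Of 22 tested, 10 fell and 1 rose (50% called, against 14.2% of all genes, median log2 fold change -0.232). Under the alternatives 8 to 12 fell. Hspa1a and Hspa1b, the inducible HSP70 genes, are near-identical neighbours (chromosome 17, 34969190 to 34972156 and chromosome 17, 34956436 to 34959238), and since multimapping reads were removed their counts are uncertain. Hspa1a had 5.37, 5.24 and 7.14 normalized counts in old NR and 17.7, 174 and 77.3 in young hearts (log2 fold change -3.92 ± 0.57, edgeR adjusted p = 1.1e-04). Hspa1b had 18.8, 14.2 and 23.02 and 24.1, 162 and 101.4 (log2 fold change -2.40 ± 0.42, edgeR adjusted p = 5.0e-04). Young replicate 2 was the highest for both and young replicate 1 came close to the old NR hearts for Hspa1b. Without young replicate 2 the log2 fold changes were -3.01 and -1.79 (edgeR adjusted p = 6.5e-04 and 0.0070).

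Several other chaperones did not rest on that heart. Hsph1, an HSP110 that recharges HSP70, had 722, 824 and 732 against 1127, 1199.5 and 1245 (log2 fold change -0.65 ± 0.10, edgeR adjusted p = 1.7e-04). Hsp90aa1, the inducible HSP90, had 513, 517 and 526 against 729, 849 and 799 (log2 fold change -0.61 ± 0.09, edgeR adjusted p = 7.2e-05). Chordc1, an HSP90 co-chaperone, had 572, 630.3 and 591 against 795, 888 and 857 (log2 fold change -0.50 ± 0.07, edgeR adjusted p = 1.1e-04). Of the HSP40 family, Dnaja1 was at 246, 292 and 327 and 373, 536 and 567 (log2 fold change -0.76 ± 0.13, edgeR adjusted p = 3.6e-04) and Dnajb1 at 203, 249 and 278 and 267, 451 and 437 (log2 fold change -0.66 ± 0.13, edgeR adjusted p = 0.0016), and the Dnajb1 groups overlapped. Hspb1, a small heat shock protein, had 371, 314 and 299 in old NR and 452, 429 and 456 in young hearts (log2 fold change -0.46 ± 0.10, edgeR adjusted p = 0.005), without overlap. Hspa8, the constitutive HSP70, had 748, 864 and 901 and 1253, 1111 and 1158 (log2 fold change -0.48 ± 0.13, edgeR adjusted p = 0.018), a call lost on leaving out, in turn, old NR replicate 1 and young replicate 1 (edgeR adjusted p between 0.057 and 0.059). The single listed member that rose was Cirbp, an RNA-binding protein known for its induction by cold, with 446, 503 and 452 in old NR and 298, 219 and 237 in young hearts (log2 fold change 0.91 ± 0.10, edgeR adjusted p = 3.6e-06). It differed in the opposite direction at ZT10 (-0.33, edgeR adjusted p = 0.044), and the change between time points was 1.24 ± 0.14, edgeR adjusted p = 1.5e-05. For Hsph1 that change was -1.15 ± 0.14, edgeR adjusted p = 5.1e-05, and 9 of the 22 members changed between the time points, against 5.98% of all genes. Old H2O hearts had 1 higher and 10 lower members against young hearts at ZT22, where 14.1% of all genes were called. Between old NR and old H2O hearts 0 members differed in edgeR (0 at an unadjusted p under 0.05), where 0.35% of all genes were called.

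Among heat shock promoters, GAANNTTC, the paired unit that heat shock factors recognise, occurred in 11 of 17 tested members with a promoter (64.7%) and in 6 of the 8 lower ones (75.0%), against 9.04% of all genes in the table and 7.01% of those tested here. Bag3, Fkbp4, Hspb8, Hspd1 and Hspe1, which did not pass the test, hold it too, so it does not separate the members that fell. The stretches of 4 lower members are shown with the unit in capitals.
Hspa1a: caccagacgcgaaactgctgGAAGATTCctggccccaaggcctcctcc
Hspa1b: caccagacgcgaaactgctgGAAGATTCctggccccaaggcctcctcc
Dnaja1: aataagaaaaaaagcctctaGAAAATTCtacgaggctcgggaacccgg
Hspb1: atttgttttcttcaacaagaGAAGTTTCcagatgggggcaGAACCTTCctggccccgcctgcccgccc
They lie at chr17:34972233-34972280 (minus strand), chr17:34959315-34959362 (minus), chr4:40722324-40722371 (plus) and chr5:135887782-135887849 (plus). The shown bases of Hspa1a and Hspa1b are the same, and Hspb1 holds the unit at positions -117 and -97. The palindromic unit reads alike on both strands in its fixed letters, and the longer GAANNTTCNNGAA, which includes it, was found in 4 of the 17 (23.5%) and in 0.662% of all genes.

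Immediate early genes, which respond within minutes to growth factors, stretch or stress, were lower in old NR hearts. Of 24 tested, 16 fell and 0 rose (66.7% called, against 14.2% of all genes, median log2 fold change -0.607). Under the alternatives 11 to 20 fell, with 12 without young replicate 2. The transcription factor Atf3 (chromosome 1, 191170296 to 191218039) had 48.3, 71.9 and 35.7 normalized counts in old NR and 76.05, 587 and 233 in young hearts (log2 fold change -2.54 ± 0.46, edgeR adjusted p = 7.4e-04). Young replicate 1 lay close to the old NR hearts and young replicate 2 far above, and without the latter the log2 fold change was -1.58 (edgeR adjusted p = 0.0092). Fos, a subunit of AP-1, was at 30.9, 23.2 and 39.7 and 64.6, 164 and 109.7 (log2 fold change -1.88 ± 0.31, edgeR adjusted p = 3.7e-04). Its partners Junb (136, 121 and 128 against 167, 246 and 182, -0.65 ± 0.14) and Jun (628, 554 and 621 against 632, 906 and 922, -0.46 ± 0.10) fell by less.

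Egr3, a zinc finger factor, had 25.5, 18.7 and 29.4 against 34.2, 100.3 and 65.8 (log2 fold change -1.49 ± 0.32, edgeR adjusted p = 0.0031). Btg2, an antiproliferative factor, had 281, 336 and 325 against 402, 843 and 512 (log2 fold change -0.90 ± 0.16, edgeR adjusted p = 7.2e-04), and its log2 fold change was -0.54 without young replicate 2 (edgeR adjusted p = 0.0021). Socs3, an inhibitor of cytokine signalling, stood at 47.00, 56.1 and 52.4 against 76.05, 122 and 80.5 (log2 fold change -0.84 ± 0.17, edgeR adjusted p = 0.0019). For Egr3, Btg2 and Socs3 the values lay further apart in young than in old NR hearts. The summed level of the list was 5715 to 5945 in old NR hearts, and 6612, 10102 and 8046 in young replicates 1, 2 and 3, so that young replicate 2 was the highest. At ZT10 the list had a median of 0.128 with 0 called in either direction in edgeR (8 at an unadjusted p under 0.05). The change between the time points passed for 11 members, against 5.98% of all genes, with Atf3 at -2.90 ± 0.69, edgeR adjusted p = 0.015 and Egr3 at -2.37 ± 0.51, edgeR adjusted p = 0.0073. Old H2O hearts had 0 higher and 11 lower members against young hearts at ZT22, where 14.1% of all genes were called. Between old NR and old H2O hearts 0 members differed in edgeR (4 at an unadjusted p under 0.05), where 0.35% of all genes were called.

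**Figure D3:**
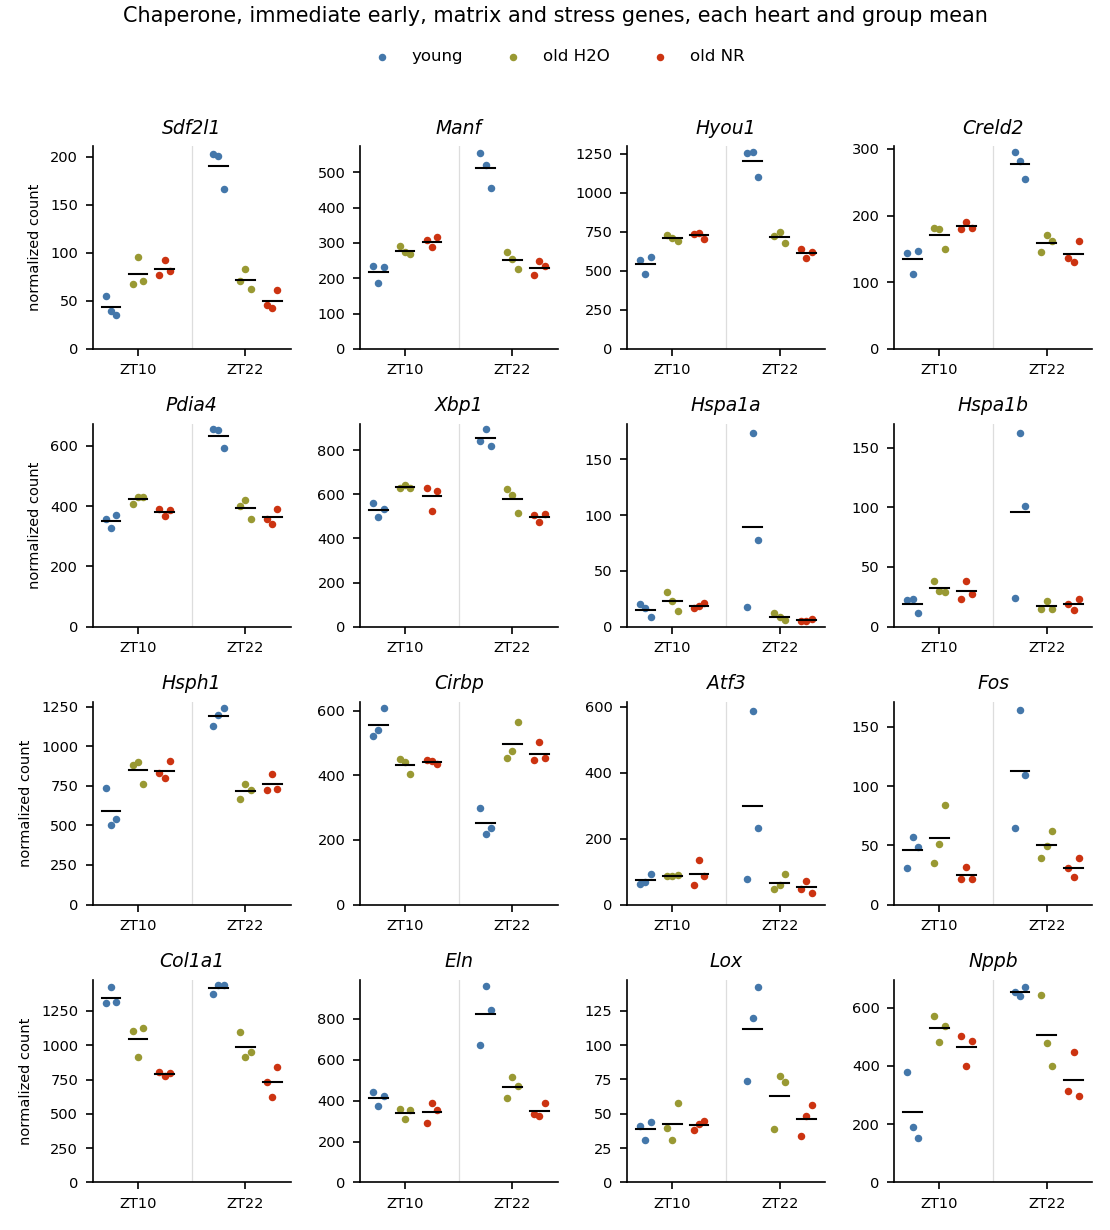
Normalized count of 16 genes in each heart (points) with the group mean (line), for young, old H2O and old NR hearts at ZT10 and ZT22. At ZT22 the young hearts stand above both old groups for Sdf2l1, Manf, Hyou1 and Hsph1, while at ZT10 they do not, Cirbp shows the opposite order, and Col1a1 is highest in young hearts at both times.

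Clock genes were shifted in both directions at ZT22. Of 18 core clock genes tested, 14 differed (77.8%, against 14.2% of all genes), 8 higher and 6 lower in old NR hearts. The number higher was 5 without old NR replicate 2 or young replicate 1. On leaving out a heart the number lower was 4 to 7, with 4 without young replicate 3. Arntl, Npas2, Cry1 and Nfil3, which had higher means at ZT22 than at ZT10 in young hearts, fell. Arntl, which encodes BMAL1 (chromosome 7, 113207465 to 113314126), had 509, 457 and 489.7 normalized counts in old NR and 643, 737 and 602 in young hearts (log2 fold change -0.45 ± 0.09, edgeR adjusted p = 0.0026). Npas2, the partner of BMAL1 that can replace CLOCK, had 105, 121 and 121 and 162, 212 and 182 (log2 fold change -0.67 ± 0.12, edgeR adjusted p = 8.8e-04). Clock itself had 866, 1027 and 1211 and 1061, 1308 and 1152 and did not pass (log2 fold change -0.18 ± 0.09, edgeR adjusted p = 0.243).

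The repressor Cry1 was at 364, 338 and 308 and 449.9, 502 and 436 (log2 fold change -0.47 ± 0.08, edgeR adjusted p = 6.3e-04). Nfil3, a repressor of D-box genes, was at 466, 326 and 347 and 517, 652 and 625 (log2 fold change -0.69 ± 0.13, edgeR adjusted p = 0.0011). These groups did not overlap. Per2, a repressor of CLOCK and BMAL1, had 192, 168 and 161 against 183, 274 and 345 (log2 fold change -0.65 ± 0.16, edgeR adjusted p = 0.0091), with overlapping values and the call lost on leaving out young replicate 3 (edgeR adjusted p = 0.089). Bhlhe40 (DEC1) also fell (-0.43 ± 0.12), although in young hearts its mean was lower at ZT22 (512) than at ZT10 (765). Its call was lost on leaving out, in turn, old NR replicate 2 and young replicates 2 and 3 (edgeR adjusted p between 0.082 and 0.131).

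Per3, Nr1d2, Dbp and Tef, which had lower means at ZT22 than at ZT10 in young hearts, rose. Per3, a further period gene (chromosome 4, 151003652 to 151044665), had 251, 335 and 281 in old NR and 144, 122 and 159 in young hearts (log2 fold change 1.05 ± 0.10, edgeR adjusted p = 6.6e-07). Nr1d2, which encodes REV-ERB beta, had 622, 667 and 706 and 337, 387 and 374 (log2 fold change 0.86 ± 0.11, edgeR adjusted p = 3.8e-05). The D-box activator Dbp was at 73.9, 86.1 and 76.99 against 43.1, 23.4 and 50.2 (log2 fold change 1.06 ± 0.21, edgeR adjusted p = 0.0016), and the related Tef at 1333, 1419 and 1168 against 928, 836 and 1085 (log2 fold change 0.46 ± 0.10, edgeR adjusted p = 0.004). Each of these 4 genes was higher in every old NR heart than in every young heart.

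Rorb, a nuclear receptor expressed at a low level here, had 29.5, 35.9 and 28.6 and 17.7, 10.3 and 11.5 (log2 fold change 1.29 ± 0.29, edgeR adjusted p = 0.0041). Per1 stood at 479, 572 and 383 and 309, 388 and 355 (log2 fold change 0.44 ± 0.14, edgeR adjusted p = 0.043), with overlapping values and the call lost on leaving out, in turn, old NR replicates 1 and 2 and young replicates 1 and 3 (edgeR adjusted p between 0.07 and 0.289). Hlf, the third factor of the Dbp family, had 0.31 ± 0.10 and lost its call on leaving out, in turn, old NR replicates 2 and 3 and young replicates 1 and 2 (edgeR adjusted p between 0.054 and 0.223). Rora had 0.36 ± 0.11 and lost it on leaving out, in turn, old NR replicates 2 and 3 and young replicates 1 and 3 (edgeR adjusted p between 0.07 and 0.134). Nr1d1 (REV-ERB alpha) was at 263, 219 and 355 and 281, 353 and 223 with no direction shared by the hearts (log2 fold change -0.04 ± 0.16, edgeR adjusted p = 0.922). Cry2 (0.11 ± 0.07, edgeR adjusted p = 0.39) and Bhlhe41 (0.23 ± 0.10, edgeR adjusted p = 0.126) did not pass.

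The contrast between the time points was smaller in old NR than in young hearts for several of these genes. Per3 was at 909, 883 and 835 in old NR and 1247, 1242 and 1367 in young hearts at ZT10 (-0.55, edgeR adjusted p = 9.7e-05), where it was lower in old NR. The change between the time points for Per3 was 1.60 ± 0.13, edgeR adjusted p = 1.3e-07. Dbp (1.32 ± 0.23, edgeR adjusted p = 0.0015), Nr1d2 (1.01 ± 0.15, edgeR adjusted p = 5.0e-04), Per1 (1.13 ± 0.19, edgeR adjusted p = 0.001), Tef (0.69 ± 0.14, edgeR adjusted p = 0.0054), Hlf (0.54 ± 0.13, edgeR adjusted p = 0.015) and Rorb (1.51 ± 0.41, edgeR adjusted p = 0.033) changed with the same sign. Nfil3 (-1.31 ± 0.23, edgeR adjusted p = 0.0016), Arntl (-1.31 ± 0.34, edgeR adjusted p = 0.025) and Cry1 (-0.63 ± 0.13, edgeR adjusted p = 0.0046) changed with the opposite one, which makes 10 of the 18, against 5.98% of all genes. For Arntl at ZT10 the values were 13.1, 26.1 and 21.01 in old NR and 8.89, 14.5 and 10.05 in young hearts. Old H2O hearts had 5 higher and 5 lower core clock genes against young hearts at ZT22, where 14.1% of all genes were called. Between old NR and old H2O hearts 0 of the 18 differed in edgeR (6 at an unadjusted p under 0.05), where 0.35% of all genes were called. Since hearts were taken at 2 times of day, a change in phase and a change in amplitude cannot be told apart.

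**Figure D4:**
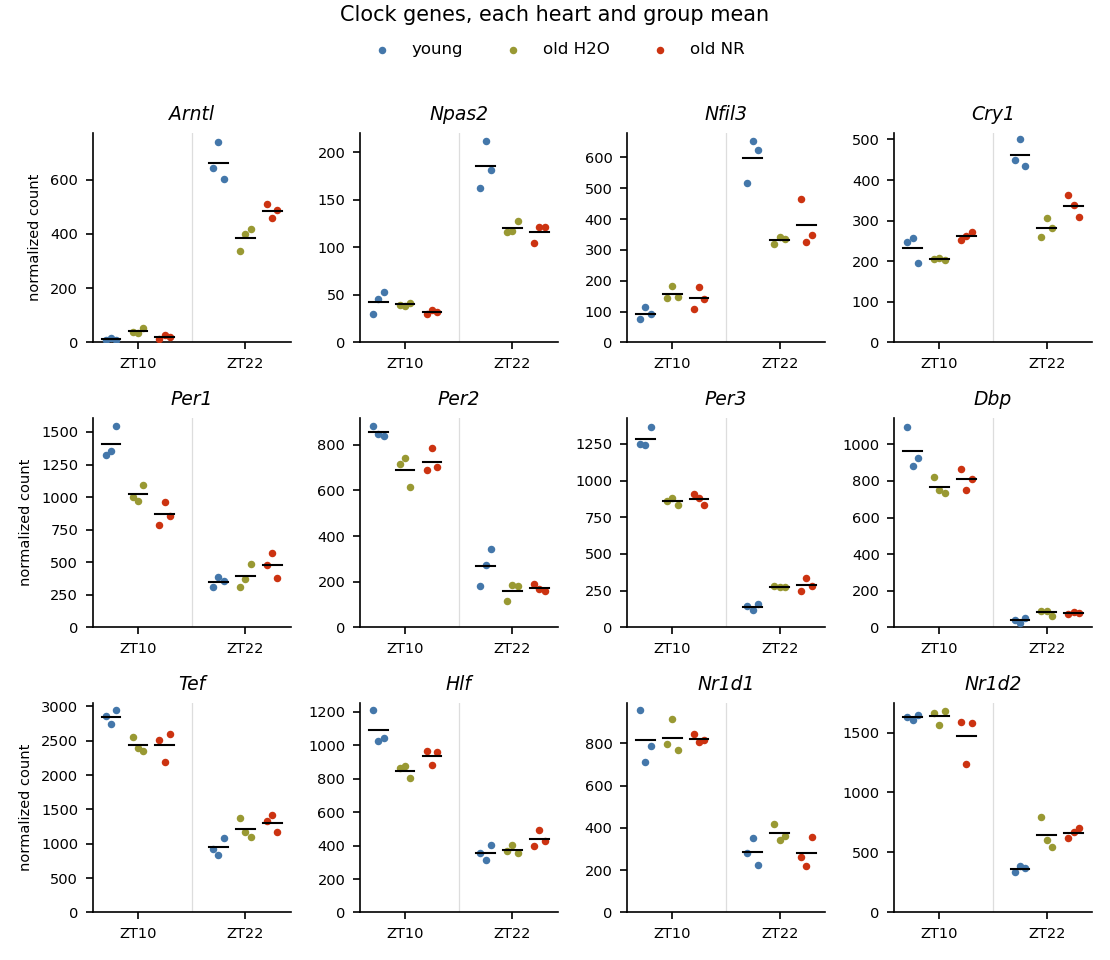
Normalized counts of 12 clock genes in each heart (points) and the group mean (line) for young, old H2O and old NR hearts at ZT10 and ZT22. Arntl, Npas2, Cry1 and Nfil3 are lower, and Per3, Nr1d2, Dbp and Tef higher, in old NR than in young hearts at ZT22.

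The E-box CACGTG, which CLOCK and BMAL1 recognise, was present in the promoter of 4 of 16 core clock genes in the table (25.0%), against 8.09% of all genes in the table and 11.5% of the genes tested here, and the D-box TTATGTAA in 1 of the 16, Per3, against 1.11% of all genes and 0.696% of those tested. The stretches of 3 E-box genes that differed and of Per3 are printed with the motif in capitals.
Per1: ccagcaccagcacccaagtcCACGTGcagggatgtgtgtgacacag
Tef: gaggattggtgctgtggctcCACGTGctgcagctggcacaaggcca
Cry1: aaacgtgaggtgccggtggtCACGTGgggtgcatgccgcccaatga
Per3: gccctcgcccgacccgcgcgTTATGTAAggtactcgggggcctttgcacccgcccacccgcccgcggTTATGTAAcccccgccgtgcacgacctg
The positions are chr11:69098763-69098808 (plus strand), chr15:81802526-81802571 (plus), chr10:85185089-85185134 (minus) and chr4:151044796-151044890 (minus). Per1 and Tef were higher and Cry1 lower in old NR hearts, so the E-box genes went in both directions, and Per3 holds the D-box at -205 and -158.

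The extracellular matrix was lower in old NR hearts at both times of day. Of 50 genes tested, 28 fell and 0 rose at ZT22 (56% called, against 14.2% of all genes, median log2 fold change -0.325), with 22 to 29 falling under the alternatives. At ZT10 21 fell and 1 rose (median -0.262), where 4.27% of all genes were called. The fibrillar collagen chain Col1a1 (chromosome 11, 94936224 to 94953042) had 730.5, 623 and 838 normalized counts in old NR and 1376, 1438 and 1438 in young hearts (log2 fold change -0.96 ± 0.09, edgeR adjusted p = 6.7e-07). Col1a2, its partner in type I collagen, had 948, 904 and 1102 and 1359, 1418 and 1418 (log2 fold change -0.50 ± 0.08, edgeR adjusted p = 3.0e-04). Col3a1 had 1417, 1204 and 1630.3 and 2139, 1972 and 1842 (log2 fold change -0.49 ± 0.11, edgeR adjusted p = 0.0056). For Col1a1 the old H2O hearts lay between, at 1097, 915 and 952, and old NR hearts were lower than those too (-0.43, edgeR adjusted p = 0.047). The basement membrane chain Col4a1 had 3545, 2737 and 3070.0 and 5081, 4702 and 4832 (log2 fold change -0.65 ± 0.10, edgeR adjusted p = 1.9e-04).

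Elastin (Eln, chromosome 5, 134702593 to 134747323) was at 333, 324 and 389.7 against 670.5, 958 and 841 (log2 fold change -1.24 ± 0.12, edgeR adjusted p = 4.0e-07). Genes that process matrix fell with it. Loxl2, an enzyme that crosslinks collagen and elastin, had 154, 153 and 187 against 267, 316 and 324 (log2 fold change -0.87 ± 0.10, edgeR adjusted p = 8.1e-06). Lox, of the same family, had 33.6, 48.7 and 56.4 against 73.5, 120.0 and 142 (log2 fold change -1.25 ± 0.24, edgeR adjusted p = 0.0013). P4ha1, which hydroxylates collagen prolines in the ER, had 661, 747 and 671 against 1035, 1003 and 1091 (log2 fold change -0.59 ± 0.07, edgeR adjusted p = 1.7e-05). The collagen chaperone Serpinh1 had 1340.1, 1148 and 1150.1 against 1826, 1623 and 1764 (log2 fold change -0.52 ± 0.10, edgeR adjusted p = 0.0012). Mfap4 (-0.95 ± 0.16), a microfibril protein, and Sparc (-0.54 ± 0.10), a collagen-binding protein, fell as well, and none of these groups overlapped. Eln (change between the time points -0.99 ± 0.17, edgeR adjusted p = 0.0013) and P4ha1 (-0.92 ± 0.10, edgeR adjusted p = 1.6e-05) differed in their ZT22 and ZT10 comparisons, while Col1a1 did not pass that test (-0.19 ± 0.13, edgeR adjusted p = 0.463).

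Of 14 fibroblast markers, 35.7% were called, against 14.2% of all genes. Of these, 4 fell, 3 of them matrix genes of the list above (Col1a1, Col3a1, Mfap5) and the other Pi16, and Scara5 rose. Scara5 was not called by DESeq2, nor without old NR replicate 2 or 3 or young replicate 1 or 3. The summed level of the 14 markers was 11504 to 13262 in old NR and 13586 to 14170 in young hearts. That sum includes Col1a1 (means of 730 in old NR and 1417 in young hearts) and Col3a1 (1417 and 1985). It is therefore not separate from the matrix counts. Of 18 endothelial markers, 9 fell and 0 rose (50% called, against 14.2% of all genes). But the number was 3 on leaving out old NR replicate 2, old NR replicate 3 or young replicate 3, one at a time, and 5 without young replicate 1. Tie1, a receptor of vascular endothelium, had 1227, 1088 and 987 against 1507, 1400.2 and 1521 (log2 fold change -0.43 ± 0.07, edgeR adjusted p = 3.5e-04). Fabp4, a fatty acid carrier of capillaries, had 1360.3, 1067 and 1021 against 1549, 1476 and 1496 (log2 fold change -0.40 ± 0.09, edgeR adjusted p = 0.0031). The VEGF receptor Kdr had 2425, 1981 and 2181 and 2966, 2565 and 2698 (log2 fold change -0.32 ± 0.09, edgeR adjusted p = 0.025), with the call lost on leaving out, in turn, old NR replicates 2 and 3 and young replicates 1 and 3 (edgeR adjusted p between 0.055 and 0.137). The pan-endothelial Pecam1 (-0.20 ± 0.07, edgeR adjusted p = 0.057) and Cdh5 (-0.24 ± 0.08, edgeR adjusted p = 0.059) missed the threshold.

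The summed endothelial level was 19042 to 21856 in old NR and 22426 to 24394 in young hearts, with no overlap. Mural cell markers fell in 3 of 12 (25% called, against 14.2% of all genes). Acta2, smooth muscle actin, had 553, 593 and 598 against 935, 1002 and 957 (log2 fold change -0.73 ± 0.07, edgeR adjusted p = 1.1e-06). Cspg4, a pericyte proteoglycan, had -0.54 ± 0.10 and Notch3 -0.36 ± 0.08. The summed mural level overlapped, at 10755 to 12864 against 11881 to 13413. Ventricular cardiomyocyte markers (10 tested, 0 called by edgeR or DESeq2 and 0 at an unadjusted p under 0.05) summed to 55256 to 75022 against 62529 to 71834, and no listed marker of fibroblasts, endothelium, mural cells or cardiomyocytes was at 0 in all 6 hearts. Whether the cell makeup took part in the lower matrix counts was not tested.

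Of 14 genes of the cardiac stress programme, 6 fell and 0 rose (42.9% called, against 14.2% of all genes, median log2 fold change -0.457). The count was 3 without young replicate 2. Nppb, which encodes the natriuretic peptide BNP (chromosome 4, 147985788 to 147987205), had 314, 449 and 297 normalized counts in old NR and 654, 639.6 and 671 in young hearts (log2 fold change -0.87 ± 0.20, edgeR adjusted p = 0.0051), with every young heart above every old NR heart. At ZT10 it went the other way, with 504, 402 and 487 in old NR and 379, 189.7 and 153 in young hearts (0.94, edgeR adjusted p = 0.016, change between the time points -1.81 ± 0.30, edgeR adjusted p = 8.9e-04). Nppa, the atrial peptide gene next to it, had 227, 236 and 176 and 223, 243 and 224 and did not pass (log2 fold change -0.12 ± 0.21, edgeR adjusted p = 0.772). Tnfrsf12a, the receptor of TWEAK, was at 247, 307 and 216 and 422, 659 and 505 (log2 fold change -1.05 ± 0.16, edgeR adjusted p = 1.4e-04), and it too was higher at ZT10 (1.04, edgeR adjusted p = 0.0016, change -2.08 ± 0.24, edgeR adjusted p = 1.8e-05). Rcan1, an inhibitor and target of calcineurin, had 1042, 948 and 971 against 1164, 1584 and 1280.1 (log2 fold change -0.45 ± 0.10, edgeR adjusted p = 0.0048).

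The fetal myosin gene Myh7 had 2525, 2491 and 1811 in old NR, 2213, 1684 and 1571 in young and 4644, 3199 and 3211 in old H2O hearts. Old NR did not differ from young hearts by the test (log2 fold change 0.32 ± 0.15, edgeR adjusted p = 0.18), and was lower than old H2O (-0.69, edgeR adjusted p = 0.047). Of 30 sarcomere genes, 3 fell and 0 rose. The cytoskeletal crosslinker Flnc had 3216, 2876 and 2556 against 4044, 5079 and 3579 (log2 fold change -0.56 ± 0.11, edgeR adjusted p = 0.0018). The slow myosin Myh7b had 1254, 1141 and 1035 against 1914, 1779 and 1585 (log2 fold change -0.62 ± 0.11, edgeR adjusted p = 4.7e-04), and Synpo2l, a Z-disc protein, had -0.46 ± 0.08. The share was 10% against the 6.58% of all genes that fell, and 6 fell without old NR replicate 1.

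Several ion channel genes rose. Scn4b, a subunit of the cardiac sodium channel (chromosome 9, 45138395 to 45154152), had 1458, 1051 and 1182 normalized counts in old NR and 612, 342 and 444 in young hearts (log2 fold change 1.41 ± 0.16, edgeR adjusted p = 3.9e-06), also at ZT10 (0.88, edgeR adjusted p = 0.0012). Of 19 potassium channel genes, 4 rose and 0 fell (21.1% called, against 14.2% of all genes called and 7.6% called higher). Kcnj3, a subunit of the channel opened by acetylcholine, had 1458, 1471 and 1433 against 1144, 1144 and 1034 (log2 fold change 0.39 ± 0.08, edgeR adjusted p = 0.0021). Kcnd2, of the transient outward current, had 373, 433 and 444 against 322, 329 and 317 (log2 fold change 0.38 ± 0.08, edgeR adjusted p = 0.0041). The modifier subunit Kcnv2 had 0.53 ± 0.12 and Kcnq1 0.33 ± 0.09, the latter call being lost on leaving out young replicate 2 (edgeR adjusted p = 0.112). Of 27 genes of calcium handling and excitation, 3 rose (Scn4b and Cacna1h among them) and 1 fell (Hcn2), with 14.8% of the list called against 14.2% of all genes, 1 higher without old NR replicate 2 and 0 lower without old NR replicate 3 or young replicate 3. Among adrenergic genes (19 tested, Adra1a and Pde4d higher, Gnas, Pde4b and Grk2 lower, 1 lower without old NR replicate 2) both directions occurred. Of these genes 26.3% were called, against 14.2% of all genes. The alpha receptor Adra1a rose from 149.6, 198 and 141 in young to 312, 302 and 386 in old NR hearts (log2 fold change 1.03 ± 0.18, edgeR adjusted p = 4.7e-04). The cAMP phosphodiesterases split, with Pde4d at 0.34 ± 0.08 and Pde4b at -0.45 ± 0.08.

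Genes of NAD metabolism differed in both directions. Of 16 genes of NAD synthesis, 3 rose and 3 fell (37.5% called, against 14.2% of all genes). Over the 16, log2 fold changes ran from -0.648 to 0.517. On leaving out any old NR heart 1 rose, and without old NR replicate 1 or 3 1 fell. Those that rose were Nmnat1, Nmnat3 and Nadk2, and those that fell Slc29a1, Nmrk2 and Nadk. Nmnat3, the mitochondrial adenylyltransferase of the last step (chromosome 9, 98287435 to 98420438), had 309, 273 and 274 against 204, 189 and 203 (log2 fold change 0.52 ± 0.08, edgeR adjusted p = 1.4e-04) with no loss of the call on leaving out a heart. Nadk, the cytosolic NAD kinase, had 449, 449 and 453 and 586, 563 and 522 (log2 fold change -0.30 ± 0.06, edgeR adjusted p = 0.0023). Nampt, the rate-limiting enzyme of NAD salvage, was at 2382, 1907 and 1977 and 1830.2, 1810.0 and 1807 (log2 fold change 0.20 ± 0.10, edgeR adjusted p = 0.206), above the young hearts in all 3 but short of the threshold. Of the kinases that use NR itself, Nmrk1 had 68.5, 93.6 and 80.2 and 76.05, 53.5 and 84.6 (log2 fold change 0.21 ± 0.16, edgeR adjusted p = 0.443) and Nmrk2 87.3, 146 and 125 and 161, 224 and 146 (log2 fold change -0.54 ± 0.16, edgeR adjusted p = 0.024). The Nmrk2 call was lost on leaving out, in turn, old NR replicates 1 and 3 and young replicate 2 (edgeR adjusted p between 0.058 and 0.227).

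Of 25 genes of NAD use and breakdown, 4 rose (Aox1, Nt5c1a, Sirt5 and Nudt13) and 1 fell (Cd38), with 20% called against 14.2% of all genes. Without old NR replicate 2, young replicate 2 or young replicate 3, 2 rose. Nt5c1a, a nucleotidase of AMP and related nucleotides, had 205, 209 and 221 and 146, 146 and 117 (log2 fold change 0.64 ± 0.14, edgeR adjusted p = 0.0029). Cd38, an NAD glycohydrolase, had 172, 208 and 216 and 255, 254 and 259 (log2 fold change -0.35 ± 0.09, edgeR adjusted p = 0.014), and the call was lost on leaving out old NR replicate 1 (edgeR adjusted p = 0.051). Sirt1, an NAD-dependent deacetylase, stood at 266, 321 and 321 and 245, 339.5 and 317 (log2 fold change 0.01 ± 0.10, edgeR adjusted p = 0.952), with overlapping groups and a sign that turned in some alternatives.

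Few genes of the basic energy and protein machinery were called. None of 76 respiratory chain genes (median log2 fold change -0.11), 75 ribosomal protein genes (-0.104) or 38 proteasome genes (-0.0269) passed the edgeR test. DESeq2 called 0 of each as well, and at an unadjusted p under 0.05 edgeR had 1, 4 and 2 of them. Of 37 fatty acid oxidation genes 1 fell (Plin2, a lipid droplet protein), and of 30 genes of glucose and glycogen use 2 rose (Pfkfb1 and Gbe1), shares of 2.7% and 6.67% against 14.2% of all genes. The Plin2 call was lost on leaving out, in turn, old NR replicates 1 and 2 and young replicates 1 and 3 (edgeR adjusted p between 0.057 and 0.115), that of Pfkfb1 on leaving out, in turn, old NR replicate 3 and young replicate 3 (edgeR adjusted p between 0.054 and 0.094) and that of Gbe1 on leaving out young replicate 2 (edgeR adjusted p = 0.071). Of 31 genes of insulin, mTOR, AMPK and FOXO signalling, 25.8% were called, against 14.2% of all genes. Of these, 6 rose and 2 fell (Irs1 and Irs2), and 0 fell without young replicate 2. Prkab2, a regulatory subunit of AMPK, had 933, 996 and 980.2 against 823, 604 and 753 (log2 fold change 0.42 ± 0.09, edgeR adjusted p = 0.0039). Irs2, an insulin receptor substrate, had 246, 198 and 206 against 218, 629 and 398 (log2 fold change -0.99 ± 0.22, edgeR adjusted p = 0.0047), with the call lost on leaving out young replicate 2 (edgeR adjusted p = 0.063). Fbxo32, the ubiquitin ligase atrogin-1, had 2374, 1948 and 2147 against 1498, 1342 and 1551 (log2 fold change 0.56 ± 0.10, edgeR adjusted p = 5.0e-04). Eef2k, the kinase that slows translation elongation, rose from 463, 352 and 432 to 616, 631 and 638 (log2 fold change 0.61 ± 0.07, edgeR adjusted p = 1.6e-05), with a change between the time points of 0.81 ± 0.10, edgeR adjusted p = 6.3e-05.

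Of 20 genes of p53 signalling and senescence, 35% were called, against 14.2% of all genes. Of these, 2 rose (Gadd45a and Glb1) and 5 fell (Cdkn1a, Gadd45g, Phlda3 and Igfbp7 among them). Under the alternatives 1 to 3 rose, with 1 without old NR replicate 2 or 3 or young replicate 1 or 2. But 1 fell without young replicate 2, 2 without old NR replicate 2 and 3 without old NR replicate 3, young replicate 1 or young replicate 3. Gadd45a rose (158, 140.0 and 149 against 98.9, 45.95 and 93.00, log2 fold change 0.93 ± 0.18, edgeR adjusted p = 0.001). The cell cycle inhibitor Cdkn1a had 447, 443 and 354 against 487, 763 and 777 (log2 fold change -0.72 ± 0.19, edgeR adjusted p = 0.012), with the call lost on leaving out, in turn, old NR replicate 3 and young replicates 2 and 3 (edgeR adjusted p between 0.06 and 0.069). Of 39 cell cycle genes, 1 was higher and 1 lower (Prc1), with 5.13% called against 14.2% of all genes. The Prc1 call was lost on leaving out, in turn, old NR replicates 2 and 3 and young replicates 2 and 3 (edgeR adjusted p between 0.056 and 0.119). The one that rose, the kinetochore gene Cenpf, had 835, 1092 and 1193 against 339.7, 413 and 354 (log2 fold change 1.5 ± 0.15, edgeR adjusted p = 9.8e-07) and a change between the time points of 1.58 ± 0.21, edgeR adjusted p = 8.7e-05.

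Macrophage markers were close to the level of young hearts. Of 19 tested, 3 rose (Mrc1, F13a1 and Folr2) and 0 fell (median log2 fold change -0.0462), with 15.8% called against 14.2% of all genes. On leaving out a heart 2 to 5 rose, with 5 without young replicate 3. The mannose receptor Mrc1 had 439, 415 and 476 in old NR and 326, 317 and 332 in young hearts (log2 fold change 0.45 ± 0.10, edgeR adjusted p = 0.0035), and the transglutaminase F13a1 485, 526 and 598 against 349, 385 and 413 (log2 fold change 0.49 ± 0.09, edgeR adjusted p = 6.9e-04). Old H2O hearts were higher still, with 639, 560.5 and 626 for Mrc1 and 847, 686 and 765 for F13a1. Old NR hearts were lower than those (-0.45, edgeR adjusted p = 0.029, and -0.50, edgeR adjusted p = 0.0086). Against young hearts, 14 of the 19 markers were higher in old H2O hearts, where 14.1% of all genes were called. Between old NR and old H2O hearts 5 of the 19 were called, where 0.35% of all genes were called. The summed level was 4374 to 4684 in old NR, 4020 to 4719 in young and 5776 to 6373 in old H2O hearts. Of 40 interferon response genes 3 rose and 0 fell (Ifit3, Igtp and Irgm1, 7.5% against 7.6% of all genes). On leaving out a heart 1 to 5 rose, with 5 without old NR replicate 3 and 1 without old NR replicate 1 or 2 or young replicate 1 or 2. Ifit3 stood at 130.3, 124 and 119 against 97.6, 60.02 and 79.4 (log2 fold change 0.67 ± 0.15, edgeR adjusted p = 0.0053).

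**Figure D5:**
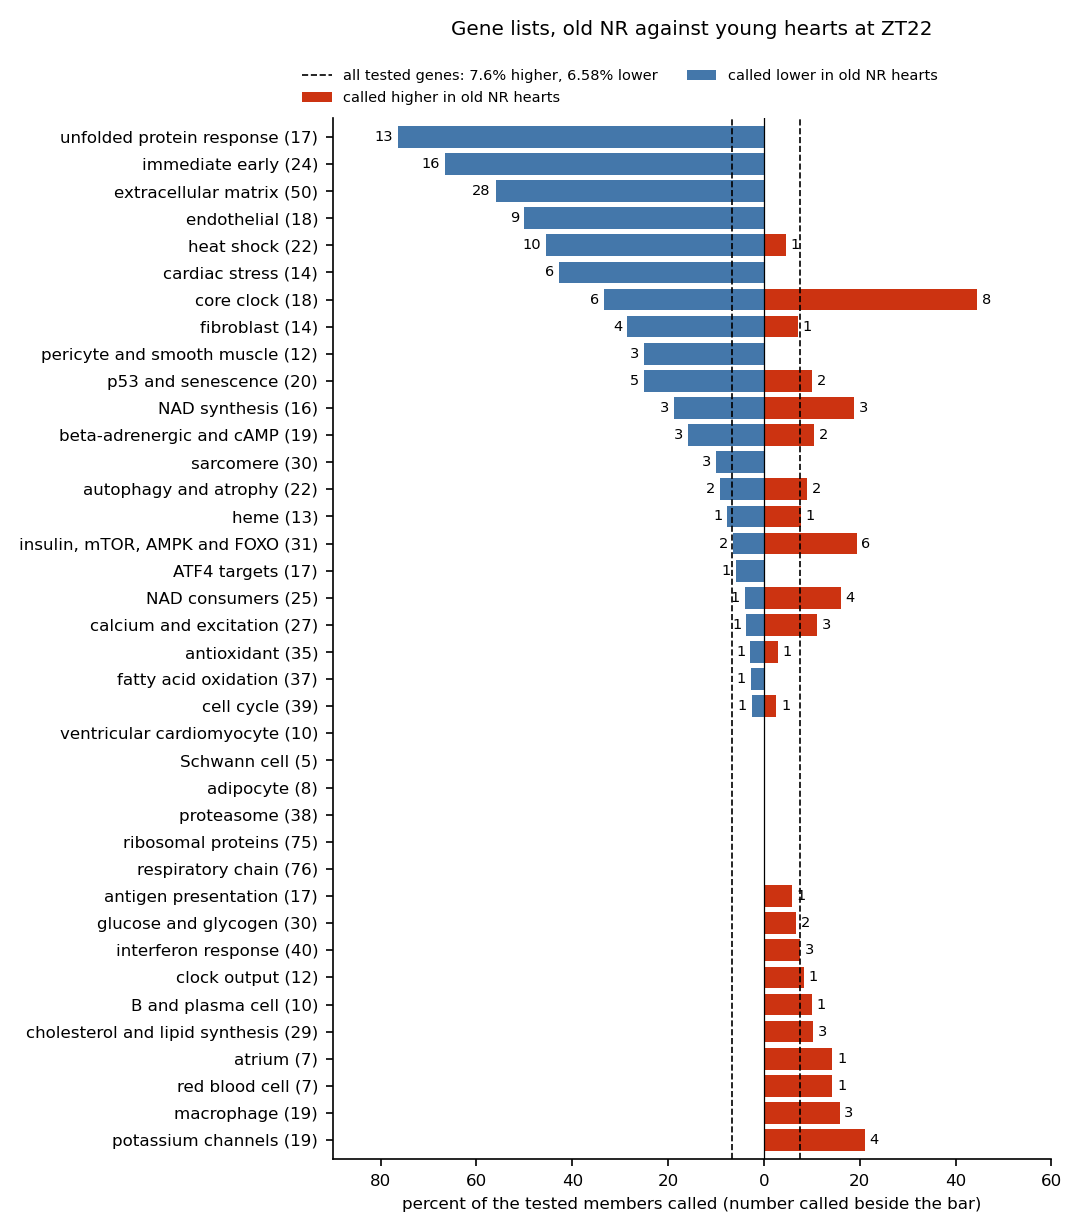
Percent of tested members called higher (right) and lower (left) in old NR hearts at ZT22 for each gene list with at least 5 tested members, with the number called beside each bar and dashed lines at the 7.6% and 6.58% of all genes. Unfolded protein response, immediate early and extracellular matrix genes reach far to the left, with 0 higher, and core clock genes reach to both sides.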

How the data were processed

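RNA of 18 hearts was sequenced as stranded mRNA libraries. The authors trimmed reads with Trimmomatic 0.39, aligned them to mm10 with STAR 2.7.10a, removed duplicates (Picard 3.0.0) and multimapping, ribosomal and mitochondrial reads, and deposited counts per gene (featureCounts 2.0.4), used here, and counts divided by DESeq2 1.36.0 size factors and rounded, a score used here for gene symbols and to check which table holds the counts. The file labels of these deposited tables are swapped. Library totals were 3922137 to 7562215 counts, which limits calls for genes near the minimum.

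The counts were tested with edgeR 4.0.16 (limma 3.58.1, R 4.3.3): TMM normalization, 1 mean for each of 6 groups over all 18 hearts (12 residual degrees of freedom), genes with an average count over 5, two-sided quasi-likelihood F-tests and Benjamini-Hochberg adjustment over all tested genes. Exact permutation of 3 against 3 hearts cannot go below p = 0.1. Alternatives were DESeq2 1.42.0, other size factors and filters, a replicate block, a library size covariate, fits of only the groups compared, and leaving out each heart. Replicate numbers did not pair the hearts.

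Coordinates came from GENCODE M21 (20737 of 20764 genes). The comparison, the 42 gene lists and the alternatives were chosen with earlier results of these data known. Named were the 12 genes with the largest fold change in each direction (mean of at least 50, no overlap, no predicted genes), the 6 further with the smallest adjusted p, up to 4 called members of each list, all core clock genes, the 5 in each direction with the smallest interaction p, and Nppa, Nppb, Sirt1, Nampt, Nmrk1, Nmrk2 and Cd38. Genes named beyond this rule, 37 of them with values (such as Hspa5, Hsp90b1, Dnaja1, Jun, Lox, Kdr, Myh7 and Pak7), were chosen after their values were seen. BC023105, which the rule also names, is not described, and a few further genes are not reported here. The script was tested on simulated counts.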

Additional observations from a re-analysis of the deposited data

Results flagged for a closer look

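For 924 genes the difference between old NR and young hearts at ZT22 was not the difference at ZT10 by a test of the change itself (edgeR interaction contrast, adjusted p under 0.05). Groups of 3 hearts were not searched for single distant samples.

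Not every named gene that passed is given here. The log2 change of the difference (ZT22 minus ZT10) was negative for the ER and cytosolic chaperone genes Hspa1a (-4.23), Hspa1b (-3.06), Sdf2l1 (-2.87), Manf (-1.62), Creld2 (-1.41), Hyou1 (-1.39), Hsph1 (-1.15), the UPR factor Xbp1 (-0.933), Pdia4 (-0.925), Hsp90aa1 (-0.86) and Chordc1 (-0.751), and for the ER ubiquitin ligase Syvn1 (-0.884). It was also negative for Atf3 (-2.90), Egr3 (-2.37), Tnfrsf12a (-2.08), Nppb (-1.81), Inka2 (-1.30), Fbxl22 (-1.10), Eln (-0.988) and P4ha1 (-0.921), and for the clock genes Arntl (-1.31), Nfil3 (-1.31) and Cry1 (-0.626). The change was positive for the clock genes Per3 (1.60), Rorb (1.51), Dbp (1.32), Per1 (1.13), Nr1d2 (1.01), Tef (0.687) and Hlf (0.537), and for Pla2g4e (2.10), Cenpf (1.58), Cirbp (1.24), Msh3 (0.97) and Eef2k (0.809).

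Fbxl22 and Msh3 were called in opposite directions at the time points. Fbxl22, an F-box protein of the sarcomere, had 504, 499 and 445 normalized counts in old NR and 707, 622 and 678 in young hearts at ZT22 (log2 fold change -0.47 ± 0.08, edgeR adjusted p = 5.9e-04), and 694, 697 and 777 against 497, 470.5 and 435 at ZT10 (0.63, edgeR adjusted p = 1.0e-04). Msh3, a mismatch repair gene, had 229.6, 234 and 258 against 180.0, 167 and 150.5 at ZT22 (log2 fold change 0.55 ± 0.09, edgeR adjusted p = 2.9e-04) and 187, 185 and 166 against 240.1, 248 and 234 at ZT10 (-0.42, edgeR adjusted p = 0.0067). Pla2g4e, a cytosolic phospholipase, was higher in every old NR heart at ZT22 (188, 269 and 196 against 95.1, 45.95 and 83.6, log2 fold change 1.59 ± 0.17, edgeR adjusted p = 2.7e-06) and had 167, 163 and 154 against 239, 211 and 242 at ZT10 (edgeR adjusted p = 0.056). Those ZT10 values did not overlap, and the lower level in old NR hearts missed the threshold. The ZT10 and ZT22 hearts came from different mice.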

How the results depend on the processing

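The count of genes called between old NR and young hearts at ZT22 varied with the fit and with the hearts included. It was 2189 with all 18 hearts, 1214 when edgeR was fitted on only the groups compared and 792 for DESeq2 on only those groups, fits with fewer samples. On leaving out each heart it ran from 1301 (without old NR replicate 2) to 2137, and the count of changes between the time points, 924, ran from 587 (without young ZT10 replicate 3) to 1068, with 602 without old NR ZT22 replicate 2. DESeq2 on all hearts called 1556 and 719, its size factors 2173 and 928, no filter 1966 and 834, and filterByExpr 2216 and 943. Library size as a covariate gave 2635 and 1336. With a replicate block the counts were 2398 and 1070. The numbers did not pair the hearts (correlations of 0.146, 0.0197 and -0.0757 of same-numbered deviations). What made the counts differ was not tested.

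Of the 134 called among the 142 genes of the naming rule, 84 kept direction and call in every alternative, 50 lost the call in some and 0 reversed. Signs turned only for genes that were not called: Canx was 0.00154 with the library size covariate. Sirt1 was -0.0389 with that covariate, and -0.103 to 0.114 on leaving out single hearts. Over the same leave-outs Nr1d1 ran from -0.27 to 0.161, its interaction from -0.277 to 0.155 and Nppa from -0.218 to 0.0108. The interaction calls of Arntl, Atf3, Hlf and Rorb were lost on leaving out some hearts. With 3 hearts a group and these depths, small changes of genes with few counts were not detectable.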

Other observations

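Further genes of the naming rule differed between old NR and young hearts at ZT22 outside the groups described. Cpox, an enzyme of heme synthesis, had 643, 517 and 585 normalized counts in old NR and 801, 798 and 829 in young hearts (log2 fold change -0.49 ± 0.07, edgeR adjusted p = 1.7e-04), and Usp2, a deubiquitinase known as a clock output, 1158, 1087 and 1046 against 845, 980.0 and 935 (log2 fold change 0.25 ± 0.07, edgeR adjusted p = 0.018), with the call lost on leaving out, in turn, old NR replicate 1 and young replicate 1 (edgeR adjusted p between 0.057 and 0.095). Of 12 clock output genes Usp2 was the one called (8.33%, against 14.2% of all genes).

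Of 29 genes of cholesterol and lipid synthesis 3 rose and 0 fell, a share of 10.3% against the 14.2% of all genes called in either direction and the 7.6% called higher. Fdft1, squalene synthase, had 364, 360.1 and 350.0 against 309, 273 and 301 (log2 fold change 0.28 ± 0.07, edgeR adjusted p = 0.0087), with the call lost on leaving out young replicate 2 (edgeR adjusted p = 0.061). Lss, lanosterol synthase, had 76.5, 88.3 and 80.2 against 65.9, 51.6 and 40.8 (log2 fold change 0.66 ± 0.18, edgeR adjusted p = 0.016), with the call lost on leaving out, in turn, old NR replicate 2 and young replicates 2 and 3 (edgeR adjusted p between 0.054 and 0.099). Acaca, which makes malonyl-CoA, had 0.44 ± 0.13, and lost its call on leaving out, in turn, old NR replicates 1 and 2 and young replicates 1 and 3 (edgeR adjusted p between 0.056 and 0.16) and in DESeq2 (adjusted p = 0.052). Without old NR replicate 2, 1 rose and 1 fell. Mstn, which encodes myostatin, was low throughout, with 6.71, 17.97 and 16.7 against 5.07, 2.81 and 2.09 normalized counts (log2 fold change 2.15 ± 0.54, edgeR adjusted p = 0.0094), and lost its call on leaving out old NR replicate 2 (edgeR adjusted p = 0.051).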
